A study of Mus musculus with 12 samples.

Results

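Among the small RNAs counted in mouse prefrontal cortex, 37 were predicted piRNAs placed on LINE/L2, LINE/CR1 or DNA transposon repeats. They were picked by the repeat family given for each predicted piRNA, and made up 37 of 424 predicted piRNAs, 693 piRNAs and 3134 small RNAs in all. The tissue came from adult male C57/BL6 mice in a cocaine-conditioned place preference experiment with 4 groups of 3 libraries, each library a pool of 2 animals. SS mice received saline for both agents, CS mice saline and cocaine at 20 mg/kg, MS mice L-methionine at 1 g/kg injected 2 times a day for 10 days (the study's text also gives another dose) and saline, and MC mice L-methionine and cocaine. Prefrontal tissue was taken 2 h after the preference test and its RNA of 18 to 30 nt was read. Library totals, in units of 1000000 counts, ran from 7.77 to 11.1. The comparisons asked what cocaine changed (CS vs SS), what methionine changed without cocaine (MS vs SS) and what it changed with cocaine (MC vs CS).

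piRNAs are small RNAs bound by PIWI proteins, known best from the germ line, where they silence active transposons. LINE/L2, LINE/CR1 and DNA transposons are old families that no longer move in the mouse genome. Several mammalian miRNA genes arose from such repeats, where inverted copies can fold into the hairpin from which a mature miRNA is cleaved. A small RNA from such a place can therefore be annotated by its repeat or by its miRNA gene, and each locus is given here with the mature miRNAs of any miRNA gene that overlaps it.

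Of the 4 markers of neurons, 3 were abundant, with a median of 109602 CPM (counts in each 1000000 of a library's total) for miR-124-3p, 49924 for miR-9-5p and 21448 for miR-128-3p, and miR-132-3p had a median of 312 CPM. Of 4 germ line miRNAs, miR-471-5p was not counted in any library, and miR-741-3p reached at most 0.275 CPM. miR-34c-5p and miR-449a-5p, which are also made outside the germ line, had medians of 20.5 and 7.75 CPM. In all, 18 marker miRNAs of neurons, oligodendrocytes, liver, muscle, blood cells and germ line were examined. Of these, 7 had higher CPM in every MS than in every SS library, 10 overlapped and miR-9-5p had lower. CPM scales by total counts, and so scaled the median log2 fold change of all 780 miRNAs tested was 0.21 in MS vs SS. The share of all miRNAs without overlap is not given here. In bulk tissue, fewer cells of a type and less RNA per cell cannot be told apart.

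The 37 predicted piRNAs fell into 14 loci, where a locus joined predicted piRNAs on the same chromosome and strand with gaps of at most 100 bases. LINE/L2 held 12 of them at 8 loci, and LINE/CR1 held 9 at 1 locus. DNA/hAT-Tip100 held 7 at 1 locus, DNA/hAT-Charlie 4 at 2 loci, DNA/TcMar-Mariner 4 at 1 locus, and unclassified DNA repeats 1. Together they had 23750 counts, of which LINE/CR1 had 9912, DNA/TcMar-Mariner 7705 and LINE/L2 5628. Their share of all predicted piRNA counts was 13.1% ± 1.99 in SS, 14.7% ± 1.62 in CS, 21.6% ± 2.31 in MS, with 16.1% ± 6.30 in MC (SD, n = 3). The 3 MS libraries lay between 19.9% and 24.2%, above the 3 SS libraries at 10.8% to 14.3%. Without MC replicate 16, which had 9.11%, the MC mean was 19.6%. The share also depends on the counts of the other predicted piRNAs. In CPM the 37 together had 166 ± 14.3 in SS, 204 ± 24.2 in CS, 236 ± 38.0 in MS, with 233 ± 55.1 in MC (SD, n = 3), or a mean of 262 without MC replicate 16. In CPM the CS libraries (187 to 232) and the MS libraries (193 to 263) lay above those of SS (150.2 to 178), whereas in share CS and SS overlapped. MC replicate 16, at 174 CPM, was within the range of SS. CPM scales by total counts. So scaled, the median log2 fold change of all loci and known piRNAs was 0.47 in CS vs SS and -0.05 in MS vs SS. The rise in CPM from SS to CS was thus not particular to the 37.

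A predicted piRNA was never listed with fewer than 10 counts in a library, so an unlisted one may have had up to 9 and is not a measured zero. In all 12 libraries, 10 of the 37 were listed (27.0%), against 55 of the 387 other predicted piRNAs (14.2%). In a single library, 7 of the 37 were listed (18.9%), against 143 of the 387 (37.0%). The filter of at least 5 counts in at least 3 libraries was passed by 25 of the 37, and by 11 of the 14 loci.

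A miRNA gene overlapped 10 of the 14 loci, against 6 of the 100 other predicted piRNA loci (6.00%). Those 10 loci held 27 of the 37 predicted piRNAs and 98.4% of their counts, whereas the 6 other loci held 6.49% of the counts of the remaining predicted piRNAs. The repeat families chose the members, so that overlap was not used by the choice, and no test of it was made. At 5 loci a miRNA gene lay on the strand given for the predicted piRNAs, and at 5 it lay on the opposite strand only. The files give a repeat, a position and a strand for each predicted piRNA, without saying whether the strand is that of the repeat or of the RNA. By the study's methods, reads that matched miRNAs were set aside before alignment to known piRNAs, and those methods do not describe how piRNAs were predicted.

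MC replicate 16 stood apart from the other 11 libraries, and this was described after its values were seen. It had the lowest CPM of the 12 libraries at 4 of the 5 loci counted in every library, and the highest at the fifth, the Mir1249 locus. Among the mature miRNAs of miRNA genes at these 14 loci that were counted in every library, it was lowest for 12 of 15, and highest for miR-1249-3p. Over all 706 miRNAs counted in every library it was lowest for 41.8% and highest for 20.8%. At the 22 other predicted piRNA loci counted in every library the picture was different, with this library lowest at 3 and highest at 11. It also had the smallest share of mature miRNA counts (56.0%), the largest shares of exon (16.1%) and rRNA (0.315%) counts, and the most predicted piRNAs listed (243). The part of these shares in the results was not tested.

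The libraries were also clustered into 3 sets by the levels of 88 precursor RNA families counted in all of them. The number of sets was chosen and not found, and the labels name no batch. SS replicate 12 and CS replicates 8 and 9 formed the first set, and CS replicate 10 with MC replicates 16 and 17 the second. The other 6 libraries, among them all 3 of MS and none of CS, formed the third, so set and group cannot be fully told apart.

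The largest locus was chr13:109324736-109324791 on the minus strand (mm10), a LINE/CR1 repeat in an intron of Pde4d, which encodes a cAMP phosphodiesterase. It held 9 predicted piRNAs, of which novel_pir218 had the most counts (33.5%), and it overlapped 48 of the 81 bases of Mir582 on the plus strand, with the whole of miR-582-5p and 2 bases of miR-582-3p. Locus counts were 734, 953 and 835 in SS (replicates 12, 13 and 14), 724, 763 and 817 in CS (8, 9 and 10), 887, 1016 and 1049 in MS (3, 4 and 23), and 108, 756 and 1270 in MC (16, 17 and 20), and counts of other loci and miRNAs are in the same order. The low value was MC replicate 16, and in CPM the remaining libraries of the 4 groups overlapped. In CPM the locus averaged 86.5 ± 10.0 in SS, 91.0 ± 7.77 in CS, 94.4 ± 11.8 in MS, with 75.0 ± 54.0 in MC (SD, n = 3), where replicates 17 and 20 had 94.8 and 116 CPM. Mature miR-582-5p had 1718, 2322 and 2654 counts in SS, 2217, 2307 and 1967 in CS, 2347, 2298 and 2404 in MS, and 340, 2317 and 3500 in MC. The same library was the low one, and in CPM SS overlapped with MS, while the CS libraries (240.4 to 265 CPM) lay just above those of SS (209 to 239.6 CPM).

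The DNA/TcMar-Mariner locus, chr11:50069713-50069754 on the minus strand, lay in an intron of Rnf130, which encodes a RING finger protein. All of its 42 bases were inside the Mir340 hairpin on the plus strand, covering miR-340-5p and ending 8 bases before miR-340-3p. It held 4 predicted piRNAs, and novel_pir176 alone had 89.8% of its counts. Locus counts were 434, 477 and 426 in SS, 498, 469 and 688 in CS, 763, 927 and 938 in MS, and 249, 778 and 1058 in MC. Every MS library was above every SS library, and MC spanned the range of all other groups. The locus averaged 46.2 ± 7.23 CPM in SS, 65.6 ± 16.2 in CS, 84.1 ± 12.7 in MS, with 75.5 ± 37.6 in MC (SD, n = 3), where replicates 17 and 20 had 97.6 and 96.9 CPM. Mature miR-340-5p had 1792, 2212 and 1819 counts in SS, 2301, 1906 and 2967 in CS, 3194, 3514 and 3811 in MS, and 863, 2873 and 4713 in MC. Its MS counts also lay above its SS counts, while miR-340-3p had 1084, 1418 and 2154 in SS and 1795, 1756 and 1352 in MS, which overlapped.

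The LINE/L2 locus chr15:84951303-84951582 on the minus strand overlapped Mir1249, a miRNA gene on the same strand. It lay in the protein-coding gene 5031439G07Rik, where an exon covered it only in a transcript with a retained intron. It covered 57 of the 98 bases of the hairpin and all of miR-1249-3p. Of its 3 predicted piRNAs, novel_pir342 had 81.4% of the counts. Locus counts were 170, 154 and 240 in SS, 217, 196 and 247 in CS, 229, 424 and 404 in MS, and 893, 186 and 494 in MC. MC replicate 16, which was lowest at the other 4 loci, was highest here. Mature miR-1249-3p had 139, 114 and 170 counts in SS, 333, 155 and 228 in CS, 185, 475 and 349 in MS, and 746, 160 and 510 in MC. It too was highest in MC replicate 16, and the median ratio of locus sum to mature count over the 12 libraries was 117%.

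A pair of LINE/L2 loci on the X chromosome was also counted in every library. At chrX:105378964-105379128 on the plus strand, in an intron of the long noncoding RNA 5330434G04Rik, the single predicted piRNA novel_pir743 overlapped Mir325 on the minus strand. It had 38, 43 and 65 counts in SS, 66, 61 and 46 in CS, 61, 104 and 79 in MS, and 14, 52 and 101 in MC. MC replicate 16 was again the lowest, and the CPM of SS overlapped with that of CS and of MS, while MC replicates 17 and 20 lay above all SS libraries. miR-325-3p and miR-325-5p had only 4 to 22 counts in any library, so the predicted piRNA had more counts than both together in all 12 libraries. At chrX:103572958-103573111 on the minus strand, in an intron of Ftx, a noncoding RNA of the X inactivation centre, 3 predicted piRNAs led by novel_pir850 overlapped Mir421 and Mir374b on the same strand and Mir374c on the other. Counts were 49, 56 and 46 in SS, 59, 47 and 57 in CS, 60, 70 and 50 in MS, and 10, 48 and 73 in MC. In CPM, SS, CS and MS overlapped, MC replicate 16 was the lowest of the 12 libraries and MC replicates 17 and 20 lay above all SS libraries. miR-421-3p (304 counts) was within the range of the other libraries in MC replicate 16.

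**Figure D1:**
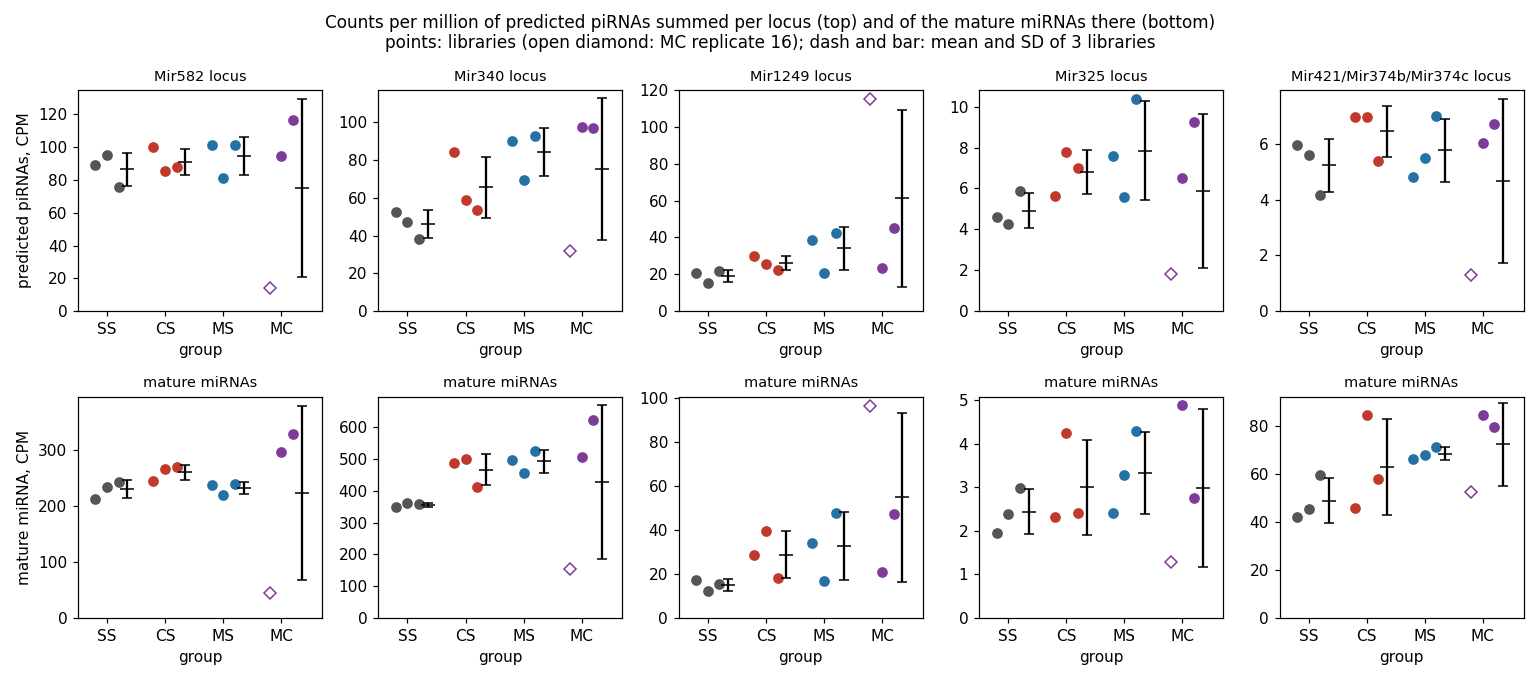
CPM (y axis) in each library (points) for the 5 loci counted in all 12 libraries (top) and for the mature miRNAs of the miRNA genes there, summed (bottom), by group, with the mean and SD of 3 libraries. MC replicate 16 (open diamond) is lowest in the top row at 4 loci and highest at the Mir1249 locus, where it reaches 115 CPM.

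The other 5 loci with a miRNA gene had few counts. The DNA/hAT-Charlie locus chr12:109729286-109729436 (minus strand, largest member novel_pir204) contained the whole Mir544 hairpin of the plus strand, in the imprinted Dlk1-Dio3 region, and was listed with 11 and 15 counts in 2 SS libraries, 10 to 25 in CS, 28 to 42 in MS, and 38 and 42 in 2 MC libraries. Its miR-544-3p had 47 to 57 counts in SS, 75 to 90 in CS, 78 to 116 in MS and 10 to 98 in MC. At chrX:103572920-103572951 on the plus strand, next to the Ftx locus above, novel_pir742 overlapped Mir421 of the minus strand and was listed in 10 libraries with 11 to 30 counts. At chrX:147010599-147010647 (plus strand), in an intron of the serotonin receptor gene Htr2c, novel_pir853 overlapped Mir1264 on the same strand and was listed with 13 to 16 counts in 5 libraries, none of them SS. The DNA repeat at chrX:72261034-72261109 (minus strand), in an intron of Gabre, a GABA-A receptor subunit gene, overlapped Mir224 on the same strand. There novel_pir855 had 11 counts in CS replicate 10 and 16 in MS replicate 3. At chr4:94665179-94665336 (plus strand), in an intron of Ift74, novel_pir651 had 12 counts in MC replicate 17, although miR-872-5p from Mir872 had 757 to 5166 counts in each library and miR-872-3p 368 to 1769. Of the other mature miRNAs at the 10 loci, miR-1264-5p had 20 to 115 counts and miR-544-5p 1 to 33. miR-1249-5p, miR-1264-3p, miR-224-3p, miR-421-5p, miR-374c-3p and miR-374c-5p had at most 7 counts in any library.

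miR-224-5p had 91 counts in SS replicate 12, 85 in CS replicate 8 and 66 in CS replicate 9, and 2 to 27 in the other libraries. The 3 high libraries were those of the first library set. The locus chr9:34768316-34768663, LINE/L2 in an intron of Kirrel3, was listed in those same 3 libraries, with 13, 11 and 14 counts of novel_pir736, and in no other. The part of library set in these values was not tested.

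The remaining 3 loci, like that in Kirrel3, had no miRNA gene. DNA/hAT-Tip100 at chr17:39842998-39843163 on the plus strand, which overlapped an exon of the noncoding RNA Gm26917, held 7 predicted piRNAs, none of them listed in more than 4 libraries. The largest, novel_pir392, had 44 counts in all, and the locus had most counts (65) in MC replicate 16, the library with the largest rRNA share. LINE/L2 at chr1:77759785-77759842 held novel_pir458, with 10 to 23 counts in 9 libraries. DNA/hAT-Charlie at chr2:161786584-161786721, in an intron of Ptprt, held novel_pir552, with 12 counts in CS replicate 10.

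In CS vs SS, the CPM of the Mir340 and Mir1249 loci was higher in every CS than in every SS library, with 58.8, 53.9 and 84.1 CPM in CS against 38.5 to 52.7 in SS at Mir340. This was the case for 2 of the 11 loci tested, with 0 lower, against 5.88% higher and 1.47% lower among the 136 loci and known piRNAs tested together. The fitted log2 fold changes, which use TMM factors to scale the libraries, were 0.18 (SE 0.47) for Mir340 and 0.10 (SE 0.45) for Mir1249, with edgeR adjusted p = 0.990 for both. Scaled by total counts they were 0.50 and 0.44. By edgeR's quasi-likelihood test at an adjusted p of at most 0.05, 0 of the 25 predicted piRNAs, 0 of the 11 loci and 0 of the 8 mature miRNAs of same-strand genes were called, as were 0% of all 281 piRNAs, 0% of the 136 loci and known piRNAs and 0% of 780 miRNAs. At an unadjusted p under 0.05 the counts were 0, 0 and 0, against 1.07%, 1.47% and 2.82% of all features. DESeq2 called 0 of each, and 0% of all features. Of the 18 markers, miR-451a and miR-34c-5p were higher in every CS than in every SS library. miR-741-3p was lower, but had only 2, 1 and 1 counts in SS and 0 in each CS library. Scaled by total counts, as CPM is, the median log2 fold change of the 780 miRNAs was 0.31 in CS vs SS. The make-up of the libraries moved as well. Repeat RNA took 5.26% to 7.06% of the counts in CS and 3.19% to 4.46% in SS, which did not overlap. The part of these markers and shares was not tested. The smallest p among the loci was that of Mir1264, with 16 and 13 counts in CS replicates 8 and 9 and no listing in SS, so no fold change is given (edgeR adjusted p = 0.990). The smallest among the mature miRNAs was that of miR-374b-5p, with 126, 116 and 190 counts in SS and 315, 168 and 193 in CS, or 11.6 to 17.2 CPM in SS and 19.3 to 37.2 CPM in CS, without overlap in CPM (log2 fold change 0.59, SE 0.31, edgeR adjusted p = 0.994).

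In MS vs SS, the Mir340 locus was higher in every MS library, at 69.6, 92.6 and 90.3 CPM against 38.5 to 52.7 in SS. Its log2 fold change was 0.76 (SE 0.47, edgeR adjusted p = 0.702), and it was picked out after its values were seen. Without MC replicate 16, which enters this fit through the shared dispersion, it was 0.78 (SE 0.21, edgeR adjusted p = 0.462), and with library set as a covariate 0.61. Over the alternatives its adjusted p ran from 0.402 to 1. The mature miR-340-5p had a log2 fold change of 0.49 (SE 0.35, edgeR adjusted p = 0.708), which was 0.30 without SS replicate 14, 0.33 when library set entered the fit and 0.74 when scaled by total counts. Groups did not overlap at 3 of the 11 loci, all higher in MS, against 8.09% higher and 2.94% lower among all loci and known piRNAs. The other 2 were the Mir544 and Gm26917 loci, where unlisted libraries stood at 0, so their order is not certain.

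Markers of other cells moved with MS vs SS. miR-451a of red blood cells had 18141, 19187 and 16491 counts in SS and 43292, 26708 and 26429 in MS, and miR-122-5p of liver had 92, 590 and 604 in SS and 27356, 1732 and 721 in MS. Both were higher in every MS library in CPM, as were miR-144-3p, miR-223-3p, miR-142a-3p, miR-133a-3p and miR-34c-5p. The other muscle markers, miR-1a-3p and miR-206-3p, overlapped between MS and SS in CPM. So did miR-449a-5p, which is on the same marker list as miR-34c-5p. The summed markers of neurons and oligodendrocytes overlapped between MS and SS, and the part of blood or other tissue in the values at the Mir340 locus was not tested. The make-up of the libraries also moved with MS vs SS: precursor RNA took 14.3% to 15.8% of the counts in MS and 11.3% to 12.4% in SS, with 9.84% in MC replicate 16, and intron RNA 3.63% to 4.00% in MS and 4.19% to 4.67% in SS. These did not overlap between MS and SS, and their part was not tested.

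By edgeR 0 of the 25 predicted piRNAs, 0 of the 11 loci and 0 of the 8 mature miRNAs were called in MS vs SS, with 0% of all piRNAs, 0% of loci and known piRNAs and 0% of miRNAs. At an unadjusted p under 0.05 there were 1, 0 and 1, both higher in MS, against 3.56%, 3.68% and 9.62% of all features. DESeq2 called 0 of each, and 0.360% of the 278 piRNAs, 1.50% of the 133 loci and known piRNAs and 1.68% of the 773 miRNAs for which it gave an adjusted p. The predicted piRNA was novel_pir179 of the Mir340 locus, with 35, 36 and 26 counts in SS and 72, 104 and 101 in MS, which did not overlap (log2 fold change 1.35, SE 0.60, edgeR adjusted p = 0.515). The mature miRNA was miR-374b-5p, with 339, 330 and 270 counts in MS against 116 to 190 in SS (log2 fold change 0.79, SE 0.31, edgeR adjusted p = 0.431). Without MC replicate 16 the adjusted p was 0.0632 for novel_pir179 and 0.0817 for miR-374b-5p, the lowest of ranges over the alternatives that reached 1 and 0.833. The smallest p among the loci was that of Mir1264, listed in MS replicate 3 with 15 counts and in no SS library (edgeR adjusted p = 0.702).

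In MC vs CS, counts at the Mir1249 locus were 893, 186 and 494 in MC against 217, 196 and 247 in CS, and its log2 fold change was 1.02 (SE 0.45, edgeR adjusted p = 0.835). The groups overlapped, and without MC replicate 16 the log2 fold change was 0.37. Its largest member novel_pir342 was counted 701, 160 and 439 times in MC against 197, 153 and 215 times in CS, with a log2 fold change of 1.03 (SE 0.44, edgeR adjusted p = 0.505), and 0.51 without that library. miR-1249-3p had the smallest p of the mature miRNAs, with a log2 fold change of 1.35 (SE 0.63, edgeR adjusted p = 0.577), and 0.16 without that library. By edgeR 0 of the 25 predicted piRNAs, 0 of the 11 loci and 0 of the 8 mature miRNAs were called, with 0%, 0% and 0% of all features. At an unadjusted p under 0.05 there were 2 (novel_pir342 and novel_pir341), 1 (their locus) and 0, all higher in MC, against 4.63%, 3.68% and 7.44% of all features. DESeq2 called 0 of each, with 0.719% of piRNAs, 1.50% of loci and known piRNAs and 0% of miRNAs. Without overlap, 1 locus was higher in MC, that of novel_pir742, which was unlisted in CS replicate 10, and 0 were lower, against 2.21% higher and 4.41% lower among all loci and known piRNAs. The make-up of the libraries differed here too. Mature miRNAs took 56.0% to 60.6% of the counts in MC and 60.8% to 65.8% in CS. Intron RNA took 5.07% to 5.26% in MC and 4.22% to 4.98% in CS. Neither share overlapped between MC and CS, and their part was not tested.

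The precision of these comparisons was limited. The median SE of the log2 fold change over the 25 predicted piRNAs was 1.23 in CS vs SS, 1.41 in MS vs SS and 1.23 in MC vs CS, so a difference of that size would lie within 1 SE. SEs were smaller for the 8 mature miRNAs of same-strand genes, with a median of 0.34 in each comparison. At the 5 loci counted in every library they were 0.45 to 0.63. Over the 5 loci counted in every library the log2 fold changes ran from -0.26 to 0.18 in CS vs SS, 0.01 to 0.76 in MS vs SS and -0.43 to 1.02 in MC vs CS. The highest in MC vs CS, at Mir1249, was 0.37 without MC replicate 16. The lowest was at the Ftx locus, where MC replicate 16 had 1.29 CPM, against 5.40 to 6.97 in CS. Directions near 0 turned with the scaling: in CS vs SS the Mir582 and Ftx loci went from -0.26 and -0.03 to 0.07 and 0.30 with total counts, and in MS vs SS from 0.01 and 0.06 to -0.08 and -0.08 with TMM factors from all features. Total counts moved the median log2 fold change of all loci and known piRNAs from 0.17 to 0.47 in CS vs SS and from -0.18 to -0.05 in MS vs SS. MS vs SS and CS vs SS share the SS libraries, and MC vs CS shares the CS libraries.

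Across libraries the level of a locus moved over a wider range than its ratio to the mature miRNAs there at 4 of the 5 loci, and at 3 without MC replicate 16 (Mir582, Mir340 and Mir1249). At the Mir582 locus, CPM differed 8.37-fold between the lowest and highest library, and the locus sum was 30.9% to 42.5% of the mature count, a 1.37-fold range. Without MC replicate 16 the ranges were 1.54-fold and 1.37-fold, so the wide range of the level came from that library, and the SD on the log2 scale was then 0.17 for the level and 0.19 for the ratio. At the Mir1249 locus the level differed 7.49-fold and the ratio 2.16-fold, and without that library 2.95-fold and 2.16-fold. At the Mir340 locus the ranges were 3.04-fold and 1.93-fold, and 2.54-fold and 1.80-fold without it. The Mir325 locus ranged 5.76-fold in level and 2.53-fold in ratio, but 2.43-fold and 2.53-fold without that library. At the Ftx locus the ratio ranged more than the level, 6.17-fold against 5.43-fold, and 2.17-fold against 1.68-fold without MC replicate 16. Its mature count came mainly from miR-421-3p (4158 counts), whose position was not available, and miR-374b-5p (2950), which the locus does not reach. The covered miR-421-5p and miR-374c-5p had 18 and 6 counts. The locus also covers miR-374b-3p, which was not listed in any library. The ratio is taken within a library, so what scales a whole library cancels in it.

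At the Mir340 locus the ratio varied more against one arm than the other. The locus sum was 21.6% to 28.9% of miR-340-5p, whose bases it covers, with an SD of 0.13 on the log2 scale over 12 libraries. Against miR-340-3p, which it does not reach, it was 19.8% to 73.2%, with an SD of 0.63. At the Mir582 locus the SD was 0.19 against miR-582-5p and 0.41 against miR-582-3p, but the latter had only 7 to 95 counts a library. At the Mir325 locus, which covers miR-325-3p and does not reach miR-325-5p, the SDs were 0.49 and 0.48, without such a contrast. The contrast between arms at Mir340 was drawn after the values were seen and has no test.

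The ratio of locus sum to mature miRNA was compared among the 4 groups by an exact permutation test of F over all 369600 groupings of the 12 libraries, at the 5 loci. The exact permutation p was 0.0799 for Mir340, 0.198 for the Ftx locus, 0.285 for Mir582, 0.377 for Mir1249 and 0.758 for Mir325. At Mir340 the ratio to both arms together averaged 13.0% ± 2.19 in SS, 14.0% ± 2.87 in CS, 17.0% ± 1.52 in MS, with 18.5% ± 2.62 in MC (SD, n = 3). No locus passed 0.05 with or without adjustment over the 5. Leaving out each library in turn gave an exact permutation p at Mir340 from 0.0277 (without CS replicate 10, which did not pass after adjustment) to 0.158 (without MC replicate 16, and likewise without MC replicate 17). With miR-340-5p alone as the denominator it was 0.285.

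The mature miRNAs of the 4 largest loci are shown because they are the small RNAs whose counts were set beside each locus. RefSeq (GRCm38.p6, the assembly of mm10) gave 18 of the 21 mature miRNAs of the 10 loci, without miR-421-3p, miR-1249-5p and miR-1264-5p. Capitals mark the seed, bases 2 to 8, by which a miRNA pairs with its targets. Each of the 7 seeds was different.
mmu-miR-582-5p: aUACAGUUguucaaccaguuac
mmu-miR-582-3p: uAACCUGUugaacaacugaac
mmu-miR-340-5p: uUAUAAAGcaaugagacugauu
mmu-miR-340-3p: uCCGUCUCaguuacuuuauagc
mmu-miR-1249-3p: aCGCCCUUcccccccuucuuca
mmu-miR-325-3p: uUUAUUGAgcaccuccuaucaa
mmu-miR-325-5p: cCUAGUAGgugcucaguaagugu

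The stretch of each hairpin inside the predicted piRNA locus is given on the strand of the miRNA gene, with the bases of a mature miRNA in capitals. For Mir582 it was chr13:109324744-109324791 (plus strand), for Mir340 chr11:50069713-50069754 (plus strand), for Mir1249 chr15:84951526-84951582 (minus strand) and for Mir325 chrX:105379082-105379128 (minus strand). Each of the 4 stretches contained 1 complete mature miRNA.
Mir582: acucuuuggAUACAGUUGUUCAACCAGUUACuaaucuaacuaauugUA
Mir340: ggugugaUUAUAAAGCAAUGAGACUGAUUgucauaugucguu
Mir1249: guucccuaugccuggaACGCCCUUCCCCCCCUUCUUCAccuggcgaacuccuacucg
Mir325: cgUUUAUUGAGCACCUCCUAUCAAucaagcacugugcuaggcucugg

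**Figure D2:**
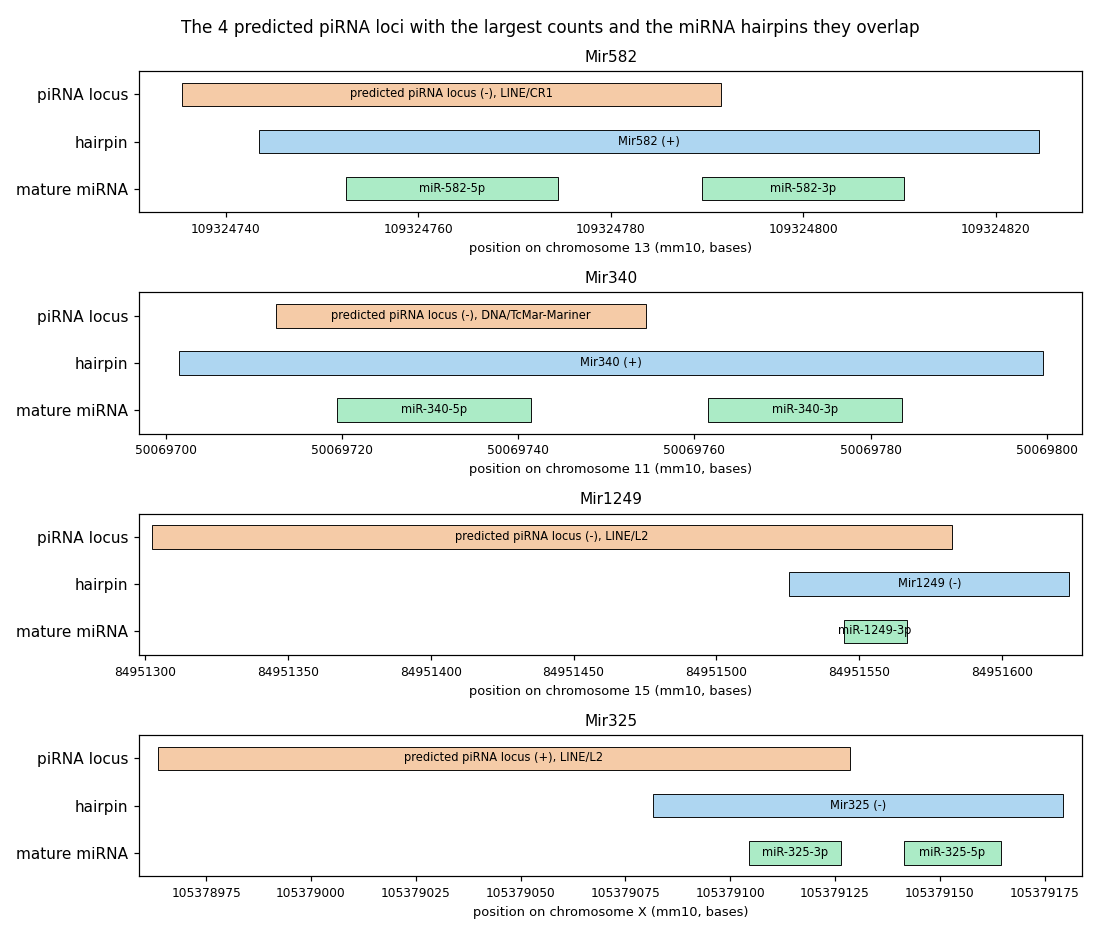
Positions on mm10, in bases, of the 4 predicted piRNA loci with the largest counts, the miRNA hairpins they overlap and the mature miRNAs, with strands in brackets. The Mir340 locus lies wholly inside its hairpin, and the Mir1249 locus extends 223 bases beyond it.

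Among 16 miRNA genes known from earlier work to derive from L2, CR1 or DNA repeats, 7 overlapped one of the 14 loci and 9 did not. The levels of the 7 and the 9 overlapped, and miR-652 and miR-151, without a member locus, had the highest mean levels of the 16, at 3641 ± 656 and 3527 ± 565 CPM, against 436 ± 119 for miR-340 and 237 ± 68.8 for miR-582 (SD, n = 12). Conversely, 4 of the 11 miRNA genes at the loci, those of miR-1249, miR-544, miR-872 and miR-1264, were outside that list. Of its 30 mature miRNAs, 24 were tested, and edgeR and DESeq2 called 0 in each comparison. At an unadjusted p under 0.05 in edgeR there were 0 in CS vs SS, 3 in MS vs SS (miR-326-3p, miR-361-3p and miR-374b-5p) and 1 in MC vs CS (miR-326-3p), all higher and named after their values were seen, against 2.82%, 9.62% and 7.44% of all miRNAs tested. The median log2 fold change of the 24 was -0.02, -0.08 and 0.04 in the 3 comparisons, against 0.03, -0.03 and 0.08 over the 780 miRNAs.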

How the data were processed

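Small RNA libraries of 12 prefrontal cortex pools were analysed. The authors mapped reads to the genome (mm10) with AASRA, set aside matches to miRNAs, rRNAs and tRNAs, aligned the rest to piRBase with Bowtie, allowing 1 mismatch (versions not given in the sources used here), and deposited a count for each small RNA with a TPM value, the count divided by the library total and multiplied by 1000000. The deposited counts were used, and TPM only to check them. Predicted piRNAs were summed per locus and matched to GENCODE M21 miRNA genes. After a filter for 5 or more counts in 3 or more libraries, each whole table was fitted in R 4.3.3 by edgeR 4.0.16, using its quasi-likelihood model with TMM factors and Benjamini-Hochberg adjustment over all features, with calls made at 0.05 or below after adjustment, and by DESeq2 1.42.0 as an alternative. On simulated data, edgeR called none of the smaller and only some of the larger changes in the piRNA and locus tables, so a count of 0 there has little weight. The simulation gave all features of a table the same dispersion and drew the changed ones from all rows, before the filter. It did not model the spread of single features, such as the 5 loci counted in every library. The SE is the log2 fold change divided by the square root of F. Ratios used a pseudocount of 0.5. No replicate pair held identical values or agreed within sampling noise by a chi-square test. The rule for named features took every locus with its largest member, its miRNA gene and mature miRNAs, any call, and the locus and mature miRNA with the smallest p in each comparison. The members and lists were chosen with earlier results of these data known.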

Additional observations from a re-analysis of the deposited data

How the results depend on the processing

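The 9 counts of called predicted piRNAs, loci and mature miRNAs, the 3 counts of called repeat-derived miRNAs and the count of loci whose ratio differed among the groups were 0 under each alternative run. Over all features the calls were not always 0: with no filter edgeR called 4, 8 and 4 of 693 piRNAs and 2, 8 and 3 of 383 loci and known piRNAs (for CS vs SS, then MS vs SS, then MC vs CS), and for MS vs SS 7 of 773 miRNAs without MC replicate 16 and 3 of 714 with only the 6 libraries. For the predicted piRNAs and loci a constant 0 has little weight, since edgeR called none of the smaller changes in simulated tables of these kinds. For the calls the alternatives were DESeq2, total counts without TMM factors, TMM factors from all features, at least 10 counts in 3 libraries, no filter, only the 6 libraries compared, library set as a covariate, and leaving out each library in turn, with loci joined over 1000 bases for the loci and miRNA genes of either strand for the mature miRNAs. A limit of 1 on the size of the log2 fold change can only lower a count, so its 0 was fixed, and joining over 1000 bases again gave 14 loci. For the ratio the alternatives were the more abundant arm alone, a pseudocount of 1, members in at least 3 libraries, and leaving out each library. The 12 changes tracked singly kept their direction and stayed above an adjusted p of 0.05. Without MS replicate 3 the Mir1264 locus was listed in no MS or SS library, so MS vs SS gave no value there. Leaving out MC replicate 16 moved the log2 fold change of the Mir1249 locus from 1.02 to 0.37 and that of miR-1249-3p from 1.35 to 0.16 in MC vs CS. No paired analysis was possible because the groups share no replicate numbers. With 10 counts as the lowest listed value, loci of few counts cannot be compared closely.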
